A study of Mus musculus with 6 samples.

Results

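The 34 genes described here encode the enzymes that build cholesterol and fatty acids, with the proteins that govern the pathways. They were chosen by gene symbol and pathway role, with no measured value in the rule, as 34 of the 24822 gene symbols in the deposited tables. Earlier results of these data were known when that choice was made. Of them 18 encode enzymes of sterol synthesis, 10 encode enzymes of fatty acid synthesis, elongation and desaturation, and 6 encode regulators or a sterol carrier. In all, 32 had enough counts to be tested. Elovl6 and Fads2 did not pass the filter on low counts.

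Cholesterol is built from acetyl units. Thiolase and HMG-CoA synthase open the mevalonate branch, which ends in farnesyl diphosphate. Squalene is made from that, turned into an epoxide, closed into rings and trimmed to cholesterol. When sterol is scarce in the endoplasmic reticulum, SCAP escorts the SREBP transcription factors to the Golgi apparatus, where they are cut and released to switch on these genes, while INSIG proteins hold SCAP back when sterol is plentiful. Fatty acid synthesis starts from citrate, and its products are lengthened by elongases and given double bonds by desaturases. Macrophages that take up myelin or dead cells receive large amounts of cholesterol from outside, and their sterol synthesis is known to be turned down by it.

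RNA was sequenced from macrophages of the injured sciatic nerve of Macblue x Cx3cr1egfp/+ mice on the C57BL/6 strain at day 14 after the nerve injury that the labels call CCI. The resident group was EGFP+ and the recently recruited group ECFP+, and both were CD64+, CD11b+, SiglecF- and Ly6G-. Each group had 3 libraries, each from about 400 cells out of a pool of 3 mice with 1 sciatic nerve per mouse, and the sex and age of the mice were not given in the labels. All mice carried both reporters, so both groups had EGFP in place of 1 copy of Cx3cr1. In Macblue mice a transgene with a modified Csf1r promoter drives ECFP, mainly in monocytes and cells newly derived from them, so the groups are defined by reporter and not by fate mapping. Uninjured nerve is not part of the comparison, and the values say nothing on a change with injury.

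The libraries held 16688848 to 27547336 expected counts. The sequencing used 2 runs, and the labels do not say which library was in which, so run and group cannot be told apart. The summed level of 8 macrophage identity genes, Csf1r and Adgre1 among them, was 5034 to 5995 CPM in resident and 6154 to 6613 CPM in recruited libraries, where CPM is the count scaled to library size. Of 12 Schwann cell genes, Sox10 and Cldn19 were at 0 in every library, while Pmp22, Egr2 and Mbp made up most of a sum of 388 to 439 CPM in resident and 444 to 674 CPM in recruited libraries. Of 6 adipocyte genes, Plin1, Lep and Cidec were at 0 in every library, and the sum was 32.1 to 62.1 against 29.8 to 49.5 CPM. Nearly all of that sum came from Fabp4. Genes of dividing cells summed to 270.2 to 489 CPM in resident and 140 to 192 CPM in recruited libraries, all 10 with a negative difference and none past the adjusted threshold. Fibroblast genes summed to 23.7 to 55.3 against 9.83 to 17.9 CPM and dendritic cell genes to 117 to 608 against 68.6 to 199 CPM. Most of the dendritic cell sum came from Cd209a, at 103, 314 and 588 CPM in resident and 107, 169 and 56.0 CPM in recruited libraries. The part of these cells in the results on sterol and fatty acid genes was not tested. In RNA from whole sorted populations, fewer cells of a type and less RNA per cell cannot be told apart.

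Resident and recruited macrophages were compared to ask whether the cells already in the nerve and those that entered it differ in how they make sterols and fatty acids. All differences are recruited minus resident on the log2 scale, with the standard error (SE), from edgeR's quasi-likelihood test over 11354 genes with Benjamini-Hochberg adjustment and a threshold of 0.05. None of the 32 tested members passed that threshold, where 36 of all tested genes did (0.317%). The smallest adjusted p among the members was 0.107, for Scd2. At an unadjusted p under 0.05, 3 members read higher in recruited libraries (Scd2, Acly and Hmgcs1; 9.38% of the tested members, against 8.13% of all tested genes). Fdps alone read higher in resident libraries at that level (3.12%, against 8.65%). These shares are close to or below those of all tested genes.

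In 6 members every recruited library read above every resident library (Hmgcs1, Mvd, Hsd17b7, Srebf1, Acly and Scd2; 18.8% of the tested members, against 12.2% of all tested genes). In another 6 members every resident library read above every recruited one (Acat2, Mvk, Fdps, Insig1, Stard4 and Acaca; 18.8%, against 12.6%). Both of these counts were read in CPM. In FPKM the groups of Insig1 overlapped, while those of Ebp did not. Differences were positive in 13 and negative in 19 of the 32 tested members, with a median of -0.13. Over all tested genes 5789 were positive and 5565 negative, with a median of 0.01. By branch, the 18 sterol enzymes were positive in 5 and negative in 13 with a median of -0.16, the 8 tested fatty acid enzymes positive in 6 and negative in 2 with a median of 0.25, and the 6 regulators and carriers positive in 2 and negative in 4 with a median of -0.23.

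**Figure D1:**
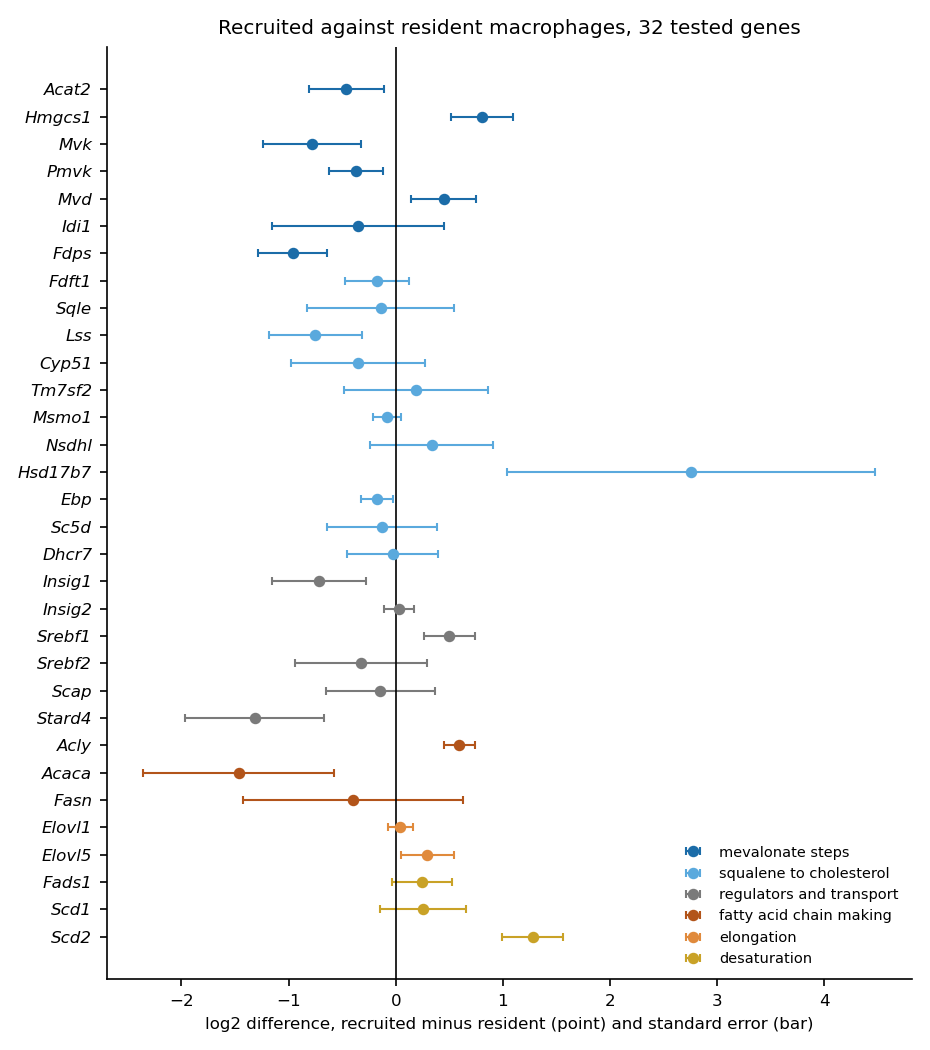
Log2 difference between recruited and resident libraries (horizontal axis, points) with its standard error (bars) for the 32 tested members in pathway order, coloured by role, from 3 libraries per group. Acly, Scd2 and Hmgcs1 stand to the right of 0 and Fdps to the left, while Msmo1, Ebp, Insig2 and Elovl1 lie near 0 with narrow bars. The bars of those first named are clear of 0, as are those of several others, Srebf1, Insig1, Stard4 and Ebp among them.

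Levels per transcript length differed widely between steps, as FPKM shows, a level corrected for library size and transcript length. Among the sterol enzymes, Ebp and Msmo1 had the highest levels, with means over the 6 libraries of 55.5 and 55.3 FPKM. Hsd17b7, at 0.402 FPKM, and Idi1, at 0.827 FPKM, had the lowest. Among the fatty acid genes, Elovl1 had the highest mean level at 163 FPKM, followed by Elovl5 at 40.3 and Acly at 34.8 FPKM, while Acaca and Fasn, the enzymes that build the chain itself, were read at 0.372 and 0.218 FPKM. The summed level of the 18 sterol enzymes was 209.9, 237 and 251 FPKM in resident replicates 1 to 3 and 206, 218 and 218 FPKM in recruited replicates 1 to 3, so the groups overlapped. The summed level of the 10 fatty acid enzymes was 276, 219.9 and 248 FPKM in resident and 294, 296 and 291 FPKM in recruited libraries. All recruited libraries were above all resident libraries in that sum. Elovl1 made up most of the sum, but its mean differed little between groups, at 159.9 FPKM in resident and 166 FPKM in recruited libraries. The means were 10.4 and 25.2 FPKM for Scd2, 27.6 and 41.9 FPKM for Acly, and 36.2 and 44.5 FPKM for Elovl5. Acaca and Fasn had lower means in recruited libraries.

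**Figure D2:**
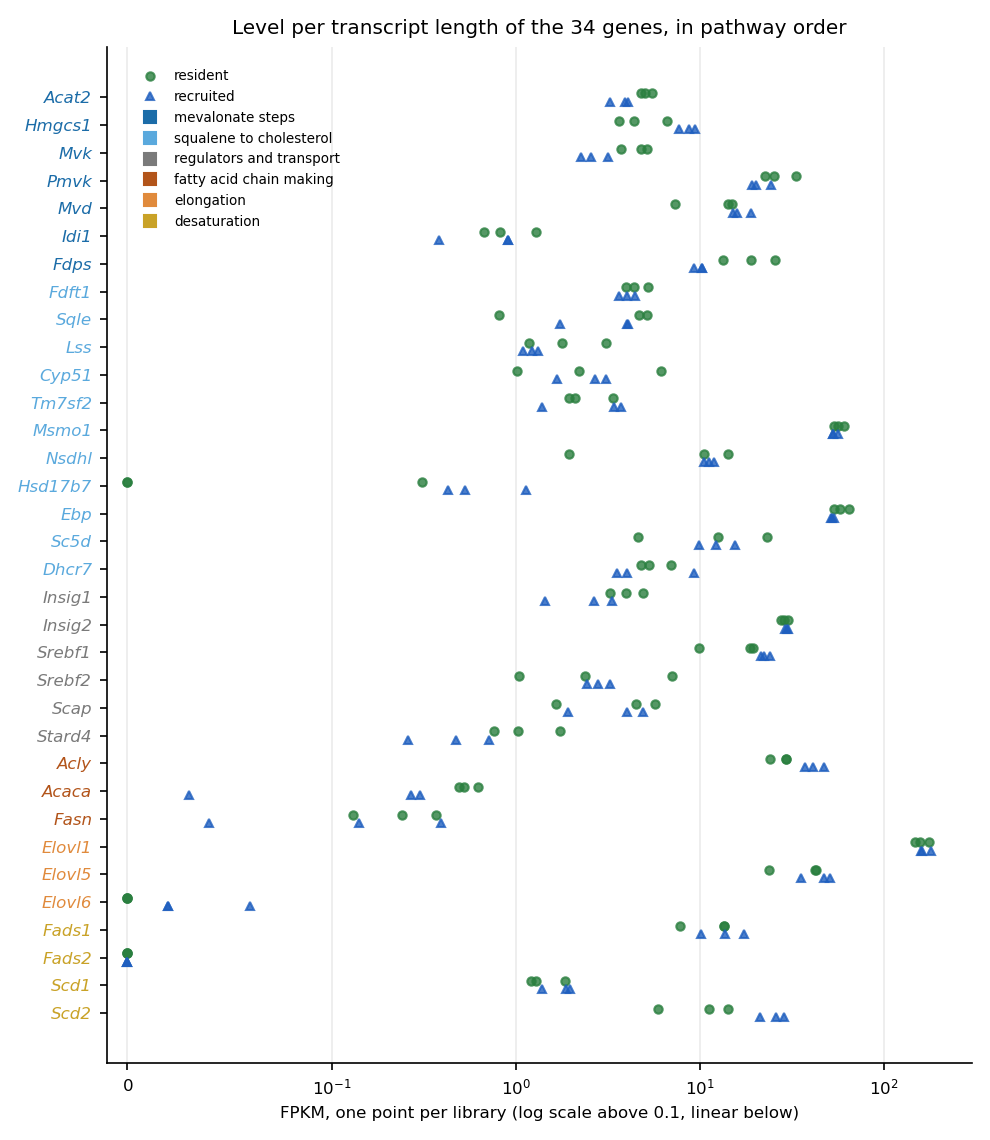
Level of each of the 34 members in FPKM (horizontal axis, logarithmic above 0.1 and linear below) in pathway order, with 1 point per library, circles for resident and triangles for recruited libraries. Elovl1, Ebp and Msmo1 lie far to the right in every library, while Fasn and Acaca lie below 1 FPKM and Elovl6 and Fads2 lie at or near 0.

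The mevalonate steps had no shared direction. Of the 7, 2 had positive and 5 negative differences, with a median of -0.37. Hmgcs1, the cytosolic HMG-CoA synthase that joins acetyl units into HMG-CoA, was read at 11.6, 15.1 and 22.7 CPM in resident replicates 1 to 3 and at 25.6, 31.8 and 28.9 CPM in recruited replicates 1 to 3. Every recruited library was above every resident one, and the resident libraries spread more than the recruited ones. The difference was 0.81 (SE 0.29), or 1.75-fold, with an adjusted p of 0.231. An antisense gene outside the count table overlaps 557 bases of Hmgcs1 exons, and the use of strand in counting was not given.

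Fdps, farnesyl diphosphate synthase at the end of the branch, was read at 13.8, 20.5 and 28.02 CPM in resident and 9.91, 11.1 and 10.96 CPM in recruited libraries. The groups did not overlap, and the recruited libraries lay close together while the resident ones spread over 2.02-fold. The difference was -0.96 (SE 0.32), with resident libraries 1.95-fold higher and an adjusted p of 0.200. Fdps shares 1124 exonic bases, 26.7% of its exons, with the gene model Gm43738 on the same strand, which is outside the count table. Pmvk, phosphomevalonate kinase and the most abundant mevalonate enzyme by FPKM, was read at 21.9, 25.6 and 34.3 CPM in resident and 20.1, 19.3 and 24.0 CPM in recruited libraries. Its groups overlapped, and the difference was -0.37 (SE 0.25, adjusted p = 0.507).

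Mvk, mevalonate kinase, was read at 6.95, 8.03 and 5.89 CPM in resident and 4.78, 3.48 and 3.85 CPM in recruited libraries, a difference of -0.78 (SE 0.46, adjusted p = 0.436). Mvd, which removes a carboxyl group from diphosphomevalonate to give the isoprene unit, was read at 22.7, 11.8 and 23.0 CPM in resident and 23.5, 30.2 and 24.9 CPM in recruited libraries, a difference of 0.45 (SE 0.30, adjusted p = 0.504). The groups did not overlap in either gene and the signs were opposite, although for Mvd the highest resident and the lowest recruited library were nearly equal. Acat2, the cytosolic thiolase that opens the branch, was read at 9.19, 10.6 and 9.31 CPM in resident and 7.64, 6.21 and 7.31 CPM in recruited libraries (difference -0.46, SE 0.35, adjusted p = 0.553). Mouse Acat2 has a close copy, Acat3, and a division of shared reads between them was not tested, although the counts of Acat2 were whole in every library. Idi1, which isomerises the isoprene unit, was low in both groups, at 1.85 to 3.51 CPM in resident and 1.01 to 2.43 CPM in recruited libraries.

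Promoters of 4 of the 12 members whose groups did not overlap in CPM are shown as examples. They are shown because SREBP, NF-Y and basic helix-loop-helix factors are known to bind short motifs near the start of genes of these pathways. Windows of 300 bases around the start (250 before and 50 after) were taken from RefSeq on GRCm38.p6, and 27 of the 34 members matched, with 36 promoters. TCACNCCAC, the core of a sterol regulatory element, was found on either strand in 1 of them, that of Hmgcs1 (2.78% of the members' promoters, against 1.24% of 32851 promoters of the same length). CCAAT, the core of the NF-Y motif, was found in 22 of the 27 members, and in 23 of the 36 promoters (63.9%, against 37.4%). CACGTG, the E-box, was found in 6 of the 27 members, and in 7 of the 36 promoters (19.4%, against 7.15%). The ends of these motifs can share letters, but no printed match overlaps another. A match is a description of the sequence and not a binding site. Only exact matches to these strings were searched, so a missing match does not show that a sterol element is absent. The 250 bases before the start follow for Hmgcs1, which holds the sterol element, Mvk, which holds 5 CCAAT boxes, Insig1, which holds 1 CCAAT box and 1 CACGTG, and Acly, which holds none of the motifs in these 250 bases. Capitals mark the motifs on either strand, so that ATTGG is CCAAT on the other strand.

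Hmgcs1, chr13:119690101-119690350, plus strand: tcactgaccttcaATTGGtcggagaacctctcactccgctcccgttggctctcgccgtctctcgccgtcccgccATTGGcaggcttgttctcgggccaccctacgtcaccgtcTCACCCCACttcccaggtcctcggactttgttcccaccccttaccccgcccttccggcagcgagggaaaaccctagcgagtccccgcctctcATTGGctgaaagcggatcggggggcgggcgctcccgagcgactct

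Mvk, chr5:114444019-114444268, plus strand: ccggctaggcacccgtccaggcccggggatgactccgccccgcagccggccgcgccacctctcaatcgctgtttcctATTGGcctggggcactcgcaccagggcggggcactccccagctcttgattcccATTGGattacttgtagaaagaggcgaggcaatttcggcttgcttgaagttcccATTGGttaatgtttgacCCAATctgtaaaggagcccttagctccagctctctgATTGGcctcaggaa

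Insig1, chr5:28071162-28071411, plus strand: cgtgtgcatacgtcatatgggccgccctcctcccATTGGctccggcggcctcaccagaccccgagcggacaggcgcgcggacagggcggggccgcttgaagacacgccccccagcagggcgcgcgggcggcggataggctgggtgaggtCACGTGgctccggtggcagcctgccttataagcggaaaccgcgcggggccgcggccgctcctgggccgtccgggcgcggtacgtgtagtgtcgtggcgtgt

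Acly, chr11:100528001-100528250, minus strand: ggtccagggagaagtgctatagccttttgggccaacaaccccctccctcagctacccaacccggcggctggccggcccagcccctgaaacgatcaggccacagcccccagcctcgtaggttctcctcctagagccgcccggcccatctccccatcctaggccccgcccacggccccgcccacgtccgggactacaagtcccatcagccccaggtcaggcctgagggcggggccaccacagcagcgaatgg

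Hmgcs1 and Mvk both hold several CCAAT boxes in these bases, 3 and 5, and their differences had opposite signs. Acly, whose only CCAAT lies in the 50 bases after the start, and Hmgcs1 had differences of the same sign. CCAAT boxes were also present in the windows of members with steady levels, such as Msmo1 with 3 and Ebp with 2. The promoters printed beside that of Hmgcs1 were chosen after their values were seen. Whether these motifs bear on the differences was not tested, and no member passed the adjusted threshold.

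The later steps, from squalene to cholesterol, held 11 enzymes, of which 3 had positive and 8 negative differences with a median of -0.13. Only Hsd17b7 had groups that did not overlap in CPM, and the smallest adjusted p among these 11 was 0.434, for Lss. In FPKM those of Ebp did not overlap either, with 53.71 in the lowest resident and 53.69 in the highest recruited library. The members with high levels were even across libraries. Msmo1, the oxidase that removes the methyl groups of lanosterol at carbon 4, was read at 95.2, 94.6 and 89.5 CPM in resident and 91.6, 86.9 and 86.0 CPM in recruited libraries. Ebp, the sterol isomerase, was read at 80.8, 103 and 91.8 CPM in resident and 80.8, 80.7 and 82.8 CPM in recruited libraries. Their differences were -0.08 (SE 0.13, adjusted p = 0.818) and -0.17 (SE 0.15, adjusted p = 0.601).

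Several members with lower levels varied widely between resident libraries, Sqle, Cyp51, Nsdhl and Sc5d among them, while Dhcr7 and Tm7sf2 varied more between recruited ones. Sqle, squalene epoxidase and a control point of the pathway, was read at 1.99, 12.2 and 13.6 CPM in resident and 4.42, 10.5 and 10.2 CPM in recruited libraries. Replicate 1 was the lowest in both groups, and the resident libraries spanned 6.80-fold. Its difference was -0.14 (SE 0.68, adjusted p = 0.945), and the sign turned under several other fits. Cyp51, lanosterol demethylase, was read at 4.05, 9.42 and 26.2 CPM in resident and 6.92, 11.4 and 12.6 CPM in recruited libraries (difference -0.35, SE 0.62, adjusted p = 0.834). Nsdhl, which acts with Msmo1 in removing those methyl groups, was read at 20.5, 4.01 and 29.4 CPM in resident and 22.4, 21.7 and 24.0 CPM in recruited libraries (difference 0.34, SE 0.58, adjusted p = 0.828). Without resident replicate 2 its difference was -0.14.

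Sc5d, a desaturase of the sterol ring, was read at 9.23, 49.0 and 26.6 CPM in resident and 20.1, 32.5 and 24.8 CPM in recruited libraries (difference -0.13, SE 0.52, adjusted p = 0.933). Resident replicate 2, the lowest library for Nsdhl, was the highest for Sc5d. Lss closes the epoxide of squalene into lanosterol. It was read at 6.92, 19.3 and 11.2 CPM in resident and 6.69, 8.16 and 7.41 CPM in recruited libraries (difference -0.75, SE 0.43, adjusted p = 0.434). Dhcr7, the enzyme that makes cholesterol from its immediate precursor, was read at 12.1, 18.8 and 14.2 CPM in resident and 10.5, 24.6 and 9.18 CPM in recruited libraries (difference -0.03, SE 0.42, adjusted p = 0.985).

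Fdft1, squalene synthase, was read at 11.2 to 14.9 CPM in resident and 10.03 to 12.2 CPM in recruited libraries (difference -0.18, SE 0.30, adjusted p = 0.823). It shares 774 exonic bases, 18.3% of its exons, with Ctsb on the opposite strand, and it was the only member whose expected counts were not whole. Tm7sf2, a reductase of the sterol ring, was read at 2.57 to 4.23 CPM in resident and 1.81 to 4.79 CPM in recruited libraries, and it shares 532 exonic bases with Vps51. Hsd17b7, a further enzyme of methyl removal, held 38, 0 and 0 expected counts in resident and 39, 106 and 38 in recruited libraries. In the pair of resident libraries at 0, 3 counts correspond to 0.151 and 0.134 CPM. The difference was 2.76 (SE 1.72, adjusted p = 0.467), and this fitted value depends on the libraries at 0.

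The median and the mean of the sterol enzymes had opposite signs. The median difference was -0.16, while the mean log2 CPM over the 18 enzymes was 3.32, 3.45 and 3.70 in resident and 3.44, 3.73 and 3.66 in recruited libraries, a difference of 0.12. The groups overlapped in that mean, and without Hsd17b7, a choice made after seeing the data, it differed by -0.09. For the 8 tested fatty acid enzymes the same mean differed by 0.02, against a median of 0.25.

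**Figure D3:**
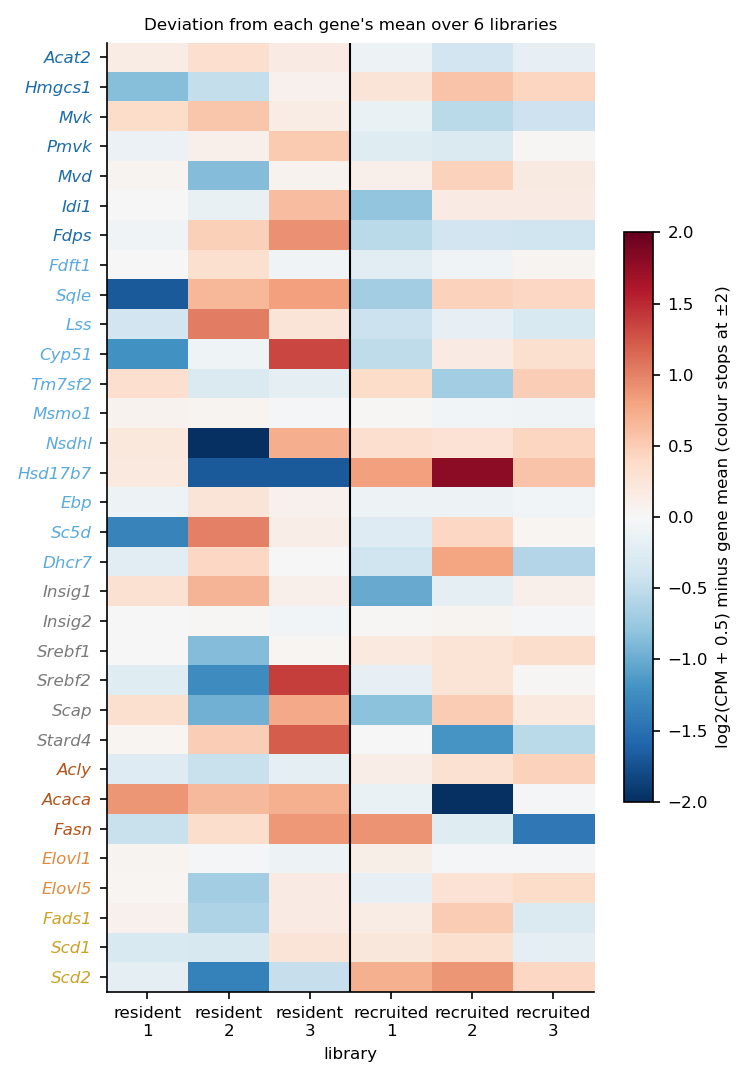
Deviation of each tested member (vertical axis, pathway order) in each of the 6 libraries (horizontal axis) from its own mean over the libraries, on the scale of log2(CPM + 0.5), with red above and blue below the mean and the colour stopping at 2 in either direction. Msmo1, Ebp, Insig2 and Elovl1 are pale throughout, while Sqle, Cyp51, Nsdhl, Sc5d and Srebf2 show strong colours in the resident libraries.

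Resident libraries spread more than recruited ones in these genes, as they did in all genes. The median coefficient of variation of the tested members was 30.5% in resident and 16.1% in recruited libraries, beside 28.02% and 17.1% over all tested genes. Within the resident group, replicate 3 was the highest library for 17 of the 32 tested members and replicate 2 the lowest for 14, where 32.2% and 35.1% of all tested genes had their extreme there. Resident replicate 3 was the highest for Hmgcs1, Fdps, Sqle, Cyp51, Nsdhl, Srebf2 and Scap among others. Hmgcs1, Fdps, Sqle, Lss, Cyp51 and Sc5d were lowest in replicate 1 of both groups. Acat2, Stard4 and Fasn were lowest in resident replicate 1 but highest in recruited replicate 1. Replicate 1 was the lowest for 12 members in the resident and 15 in the recruited group, where 32.9% and 33.2% of all tested genes were lowest.

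The regulators showed no shared direction. Srebf1, which encodes the SREBP that mainly serves fatty acid synthesis, was read at 77.0, 41.7 and 79.1 CPM in resident and 88.5, 92.9 and 98.7 CPM in recruited libraries. All recruited libraries were above all resident ones, and resident replicate 2 was low. The difference was 0.50 (SE 0.24), or 1.42-fold, with an adjusted p of 0.346, and it was 0.26 without resident replicate 2. Srebf2, which encodes the SREBP that mainly serves sterol synthesis, was read at 9.99, 4.68 and 31.7 CPM in resident and 10.6, 14.4 and 12.05 CPM in recruited libraries. The recruited libraries lay inside the range of the resident ones, which spanned 6.76-fold, and the difference was -0.32 (SE 0.61, adjusted p = 0.846). By FPKM, Srebf1 had the higher level of the pair, at 19.3 against 3.15 over the 6 libraries. Srebf1 shares 109 exonic bases with Rai1 on the opposite strand.

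Insig1, a sterol-responsive target of SREBP that holds SCAP in the endoplasmic reticulum, was read at 9.40, 12.4 and 8.17 CPM in resident and 3.52, 6.59 and 8.15 CPM in recruited libraries. The groups did not overlap in CPM, but the lowest resident and the highest recruited library were nearly equal. In FPKM they overlapped, at 3.96, 4.91 and 3.24 in resident and 1.44, 2.64 and 3.34 in recruited libraries. The difference was -0.71 (SE 0.44), with resident libraries 1.64-fold higher and an adjusted p of 0.464. Its relative Insig2 was even, at 67.2, 68.4 and 65.1 CPM in resident and 68.8, 70.1 and 66.5 CPM in recruited libraries (difference 0.03, SE 0.14, adjusted p = 0.935). By FPKM, Insig2 had a mean level of 29.1, against 3.25 for Insig1. Scap, the escort of the SREBPs, was read at 17.2, 6.79 and 23.5 CPM in resident and 7.58, 19.6 and 15.9 CPM in recruited libraries, with overlap of the groups. Stard4, a carrier of sterol between membranes and a known SREBP target, was read at 3.77, 5.40 and 9.13 CPM in resident and 3.64, 1.34 and 2.37 CPM in recruited libraries (difference -1.32, SE 0.65, adjusted p = 0.359).

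The fatty acid branch held both members with the smallest adjusted p. Scd2, a stearoyl-CoA desaturase that puts the first double bond into saturated fatty acids, was read at 72.0, 32.1 and 60.2 CPM in resident and 135, 153 and 111 CPM in recruited libraries. The lowest recruited library was well above the highest resident one, and resident replicate 2 was low. The difference was 1.28 (SE 0.29), or 2.43-fold, with an adjusted p of 0.107. It passed the threshold in DESeq2 (adjusted p = 0.00134), where 6.1% of all tested genes were called. It also passed in edgeR's quasi-likelihood test without resident replicate 1 (adjusted p = 0.0387), where 5.0% were called. Its relative Scd1 was read at 5.80, 5.76 and 8.81 CPM in resident and 8.66, 9.26 and 6.37 CPM in recruited libraries, with overlap and a difference of 0.25 (SE 0.40, adjusted p = 0.811). By FPKM, Scd2 had the higher level of the pair, at 17.8 against 1.59. Scd1 and Scd2 are related genes, and a division of shared reads between them was not tested, although the counts of both were whole in every library.

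Acly, ATP citrate lyase, which turns citrate into the acetyl-CoA that feeds both branches, was read at 119.7, 105 and 127 CPM in resident and 157, 177 and 197 CPM in recruited libraries. The groups did not overlap. The difference was 0.59 (SE 0.15), or 1.51-fold, with an adjusted p of 0.125, and DESeq2 gave an adjusted p of 0.0112. Acaca, the acetyl-CoA carboxylase that commits carbon to fatty acids, was read at 5.31, 4.48 and 4.70 CPM in resident and 2.39, 0.239 and 2.62 CPM in recruited libraries. Here every resident library was above every recruited one, the opposite of Acly, and recruited replicate 2 held only 5 expected counts. The difference was -1.47 (SE 0.89, adjusted p = 0.457). Fasn, fatty acid synthase, was read at 1.19, 2.42 and 3.70 CPM in resident and 3.76, 1.43 and 0.346 CPM in recruited libraries, with overlap and a difference of -0.40 (SE 1.03, adjusted p = 0.890).

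**Figure D4:**
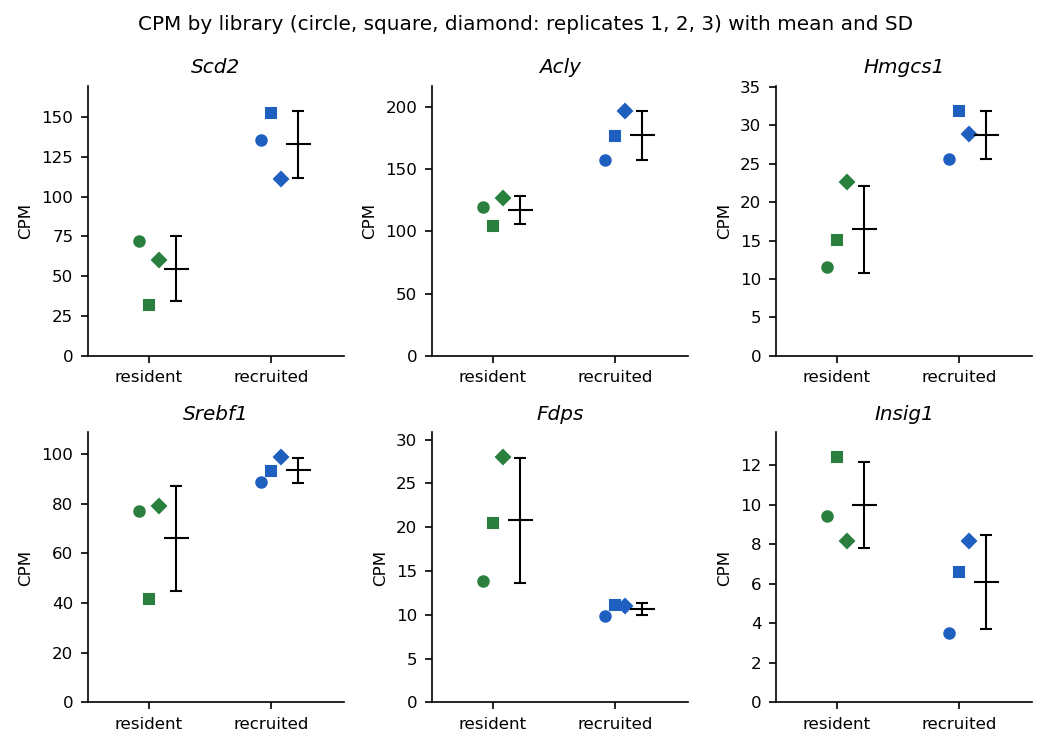
CPM of Scd2, Acly, Hmgcs1, Srebf1, Fdps and Insig1 in each library (vertical axes from 0), with circles, squares and diamonds for replicates 1, 2 and 3 and the mean with SD (n = 3) beside them. The recruited points lie above the resident points for the first 4 genes and below them for Fdps and Insig1, where the nearest points of Insig1 almost touch.

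The elongases ranged from Elovl1, even across libraries, to Elovl6, near 0. Elovl1, which lengthens saturated and monounsaturated chains, was read at 275, 261 and 247 CPM in resident and 288, 261 and 257 CPM in recruited libraries (difference 0.04, SE 0.12, adjusted p = 0.896). Elovl5, which lengthens polyunsaturated chains, was read at 105, 62.8 and 114 CPM in resident and 90.7, 124 and 131 CPM in recruited libraries (difference 0.30, SE 0.25, adjusted p = 0.599). Elovl6, which lengthens palmitate, held no expected counts in the resident group and 6, 2 and 2 in recruited replicates 1 to 3, too few to test.

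Of the front-end desaturases, Fads1 was read at 42.4, 26.0 and 44.9 CPM in resident and 44.6, 57.1 and 32.7 CPM in recruited libraries (difference 0.25, SE 0.28, adjusted p = 0.719). Fads2, the enzyme that acts before it on the same chains, had 0 expected counts in all 6 libraries, where 3 counts correspond to 0.109 to 0.180 CPM. Resident replicate 2 was the lowest resident library for Elovl5, Fads1, Scd1, Scd2, Acly and Srebf1. It was also the library with the highest summed level of genes of dividing cells, whose part in these values was not tested.

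The genes that surround the pathways were read from 5 lists with 66 genes, of which 63 were tested and none passed the adjusted threshold. Differences were positive in 38 and negative in 25, with a median of 0.10, and 7 read higher in recruited and 4 in resident libraries at an unadjusted p under 0.05. These are 11.1% and 6.35% of the genes tested in these lists, near the 8.13% and 8.65% of all tested genes. Of the 13 genes for processing and turnover of the SREBP system, 10 had positive differences, with a median of 0.29. Ube2g2, a ubiquitin-conjugating enzyme of the endoplasmic reticulum, had a difference of -0.09 (SE 0.17, adjusted p = 0.849). Sec24d, a coat protein of the vesicles that leave the endoplasmic reticulum, was chosen after its values were seen, and was read at 41.4, 24.0 and 38.1 CPM in resident and 67.7, 65.6 and 78.1 CPM in recruited libraries (difference 1.03, SE 0.23, adjusted p = 0.107).

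The LXR list held 10 genes: the receptors, which sense oxysterols, their partners Rxra and Rxrb, the coregulators Ncoa5 and Ncor1, and targets. Of these 10, 8 had positive differences, with a median of 0.20. Lpcat3, a phospholipid acyltransferase, and Nr1h3, which encodes LXR alpha, were the most abundant by FPKM, with differences of 0.22 (SE 0.15, adjusted p = 0.509) and 0.10 (SE 0.23, adjusted p = 0.870). Abca1, the cholesterol exporter, chosen after its values were seen, was read at 182, 161 and 86.3 CPM in resident and 225, 239.7 and 199 CPM in recruited libraries (difference 0.63, SE 0.26, adjusted p = 0.272). The recruited libraries were all above the resident ones, and resident replicate 3 was low. The groups overlapped in the targets Abcg1 (difference -0.06, SE 0.17, adjusted p = 0.911) and Mylip (difference 0.18, SE 0.36, adjusted p = 0.858).

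Storage and turnover of sterols were read from 10 genes, 9 of them tested, with a median difference of 0.00. Lipa, the lysosomal acid lipase, and Npc2, which carries cholesterol out of the lysosome, had the highest levels, at 311 and 189.8 FPKM over the 6 libraries, and differences of 0.26 (SE 0.22, adjusted p = 0.604) and -0.09 (SE 0.14, adjusted p = 0.800). A pair of genes in this list was named after the values were seen. Soat1, which esterifies cholesterol for storage, was read at 360, 326 and 271 CPM in resident and 477, 569.0 and 555 CPM in recruited libraries (difference 0.74, SE 0.15, adjusted p = 0.105). Cyp27a1, which makes 27-hydroxycholesterol, was read at 43.9, 58.2 and 80.7 CPM in resident and 32.4, 18.5 and 33.2 CPM in recruited libraries (difference -1.12, SE 0.30, adjusted p = 0.144). The groups did not overlap in either gene, and the directions were opposite.

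Of the 13 genes for prenylation, dolichol and ubiquinone, which draw on the mevalonate branch, 7 had positive differences, with a median of 0.02. Fnta, a subunit of farnesyltransferase, and Rce1, a protease for prenylated proteins, had differences of -0.29 (SE 0.20, adjusted p = 0.507) and -0.34 (SE 0.22, adjusted p = 0.491). Of the 20 partner genes of fatty acid synthesis, 18 were tested and 8 had positive differences, with a median of -0.10. Cyb5a and Cyb5r3, the electron carriers of the desaturases, had mean levels of 615 and 199 FPKM and differences of -0.18 (SE 0.26, adjusted p = 0.792) and 0.25 (SE 0.13, adjusted p = 0.395). Acacb, the mitochondrial relative of Acaca, had 0 counts in all 6 libraries.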

How the data were processed

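Macrophage RNA was measured in 6 libraries made with SMART-Seq v4 (18 cycles) and Nextera XT without molecular identifiers, per the labels' protocols. The deposited expected counts carry no further normalization. The deposited FPKM values are the authors' own, scaled for library size and for the length of each transcript. The submitters' processing notes name STAR 2.5.3a and RSEM 1.2.28 beside FastQC, Trimmomatic, edgeR and DESeq2, and build mm10. Annotation and strand setting were not given in the sources used here.

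Symbols that had become dates (26 of 24848, 0.121 to 0.138% of counts) were left out. Expected counts were rounded and tested with edgeR 4.0.16 (R 4.3.3) by the quasi-likelihood test, with TMM factors, filterByExpr, robust estimation, no covariate, and Benjamini-Hochberg adjustment over all tested genes. SE is the log2 difference over the square root of F. Floors of 3 counts cover counting error only. With 3 libraries against 3, an exact permutation test cannot go below p = 0.1. Exonic overlaps come from GENCODE M21.

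The members and lists were chosen with earlier results of these data known. By rule, values in every library were given for members past the threshold, for those with an unadjusted p under 0.05 and no overlap, for the 2 of highest FPKM per role and for Hmgcs1, Sqle, Insig1, Srebf1, Srebf2, Acaca, Fasn, Scd1 and Scd2. Further members, and the promoters other than that of Hmgcs1, were added after their values were seen. Surrounding lists name the 2 genes of highest FPKM, except where a gene is not reported here. Alternatives were other size factors and filters, DESeq2 1.42.0, limma 3.58.1 (voom, and log2 of FPKM with pseudocounts of 1 and 0.1), each library left out, and a replicate block.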

Additional observations from a re-analysis of the deposited data

How the results depend on the processing

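No member passed the threshold under 14 of 16 alternatives; DESeq2 called 2 (Acly and Scd2) and leaving out a library called 0 to 1. All tested genes past it numbered 58 without a filter, 73 with at least 10 CPM in 3 libraries, 650 with DESeq2, 73 and 55 with limma on log2(FPKM + 1) and log2(FPKM + 0.1), 2 with unfiltered FPKM, and 0 to 580 with a library left out (580 without resident replicate 1). The labels do not say if same-numbered libraries share mice. Their deviations correlated at 0.0155, 0.0626 and 0.0488 over genes, and those of libraries with different numbers at -0.0925 to 0.0588. Correlations this small cannot settle whether mice were shared, because they can arise either way. The main fit used no pairing. With a replicate block 28 genes and 0 members passed.

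Medians with a library left out were -0.35 to -0.0696 for sterol enzymes, 0.06 to 0.43 for fatty acid enzymes and -0.52 to 0.14 for regulators (0.14 without resident replicate 3). Of 501 member values under alternatives, 466 kept direction and side of the threshold, 3 newly passed and 32, in 10 members, changed sign. With voom, Sqle was 0.40, Cyp51 0.13, Sc5d 0.29 and Srebf2 0.0915. On log2(FPKM + 1), filtered or not, Sqle was 0.0469 and Sc5d 0.12, and on log2(FPKM + 0.1) Sqle was 0.16, Sc5d 0.15 and Srebf2 0.0886. With the replicate block Sqle was 0.15, Cyp51 0.00011, Sc5d 0.13 and Srebf2 0.0899. With a library left out the ranges were -0.62 to 0.25 for Sqle, -0.78 to 0.63 for Cyp51, -0.0478 to 0.52 for Tm7sf2, -0.14 to 0.89 for Nsdhl, -0.54 to 0.53 for Sc5d, -0.61 to 0.23 for Dhcr7, -0.75 to 0.75 for Srebf2, -0.50 to 0.26 for Scap, -1.44 to 0.10 for Fasn and -0.0031 to 0.0892 for Elovl1. The cause was not tested. Fads2, Elovl6, Hsd17b7 and Fasn had few or no counts in some libraries, and Acaca in 1. Without Hsd17b7, added after seeing the data, the mean log2 CPM of the sterol enzymes differed by -0.09 in place of 0.12.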
